A study of Mus musculus with 10 samples.

Results

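Xbp1 encodes a transcription factor of the unfolded protein response, the programme that enlarges the folding and export capacity of the endoplasmic reticulum. It was followed here at every level the data allow. Genes were taken by the symbol Xbp1, which matched 1 of the 26599 genes and 4 of the 61112 transcripts in the RNA tables. Its surroundings were taken by position on mouse chromosome 11 (build mm9): ATAC peaks from 5.2 to 5.7 Mb, the 2 Mb contact bin from 4 to 6 Mb, and the 1 Mb contact bin from 5 to 6 Mb.

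The study compared naive B cells with plasma cells of C57BL/6 mice. The assays used here are 3: RNA-seq, ATAC-seq (which maps open chromatin) and tethered conformation capture, TCC (which ligates DNA ends that lie close together in fixed nuclei). A single library was made of each cell type in each assay. Differences therefore have no replicate check, and no p-value is given. Intervals are exact 95% Clopper-Pearson intervals and cover counting error only.

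The groups differ between assays in ways that touch every comparison across them. Naive cells for RNA and ATAC were splenic CD23+IgD+ cells sorted from WT mice, and those for TCC were CD23+ cells enriched from WT spleens with magnetic beads. ATAC plasma cells were sorted from WT bone marrow as CD138+ and B220-, and both ATAC libraries started from 50000 cells. The RNA plasma library, also WT, has conflicting labels: its source is given as activated in culture, while its protocol describes the same bone marrow sort. The TCC plasma library conflicts the other way, labelled ex vivo but described as CD23+ cells of Blimp-GFP mice, kept for 3 days with 10 µg/ml LPS (a bacterial activator of B cells) and sorted for GFP. Blimp-GFP mice report Prdm1, the gene of the plasma cell factor Blimp-1, so that sort selected on a regulator of Xbp1. RNA, peaks and contacts of plasma cells therefore did not all come from one preparation.

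As background, XBP1 is made active by an unusual step. When unfolded protein builds up, the sensor IRE1 (gene Ern1) cuts a short segment out of the Xbp1 messenger RNA in the cytoplasm, and the tRNA ligase RTCB joins the ends. The join shifts the reading frame, and the longer protein activates genes for protein import, glycosylation, folding, degradation and vesicle traffic. Plasma cells need XBP1 to secrete antibody at full rate.

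The segment that IRE1 removes is shown because the long and short reading frames of Xbp1 differ by it. In the GENCODE vM21 sequence of Xbp1-001, 6 pairs of the motif CNGCAG lie close enough to bound a short segment. Removing 1 of the 6 extends the reading frame from 804 to 1116 bases, the coding length that the RNA tables give for Xbp1-201. That segment is 26 bases long and lies at chr11:5524282-5524307 on the plus strand of GRCm38, in exon 4 of 5. The surrounding coding sequence, chr11:5524252-5524337, is given 5′ to 3′. Capitals mark the removed segment in the uncut form and the joined ends in the other.
Xbp1 uncut: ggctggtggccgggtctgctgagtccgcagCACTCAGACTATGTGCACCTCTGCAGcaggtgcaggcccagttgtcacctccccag
Xbp1 joined: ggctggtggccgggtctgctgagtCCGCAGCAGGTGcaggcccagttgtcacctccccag

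Xbp1 RNA rose in plasma cells, and its rise differed between transcripts. Summed over the gene (ENSMUSG00000020484.11), the estimated count was 3795 in the naive and 65632 in the plasma library, which is 0.0103% and 0.151% of each library. The level went from 109 to 939 TPM (transcripts per 1 M, a level corrected for length), and the gene's rank by TPM from 1362 to 200 of 26599. TPM are shares of a fixed total, so a few very abundant messages can lower those of other genes. Therefore log2 ratios were computed from TPM plus 1 and then centred. The centre was the median of 7495 genes that reached 5 TPM in each library, -0.99. On this scale Xbp1 had a log2 ratio of 4.08, above 98.5% of the 10219 tested genes, those that reached 5 TPM in either library. Genes were called higher or lower at a centred 2-fold difference, which took 16.0% of tested genes as higher and 22.1% as lower. Without centring the split was 7.75% higher and 57.6% lower. The naive library held 37.0 M and the plasma library 43.5 M estimated counts.

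Most Xbp1 reads were assigned to Xbp1-201, the transcript whose coding length equals that of the joined frame (372 codons). Its level was 92.6 TPM in the naive and 801 TPM in the plasma library. Xbp1-001, which keeps the segment and codes for the short frame (268 codons), stood at 3.74 TPM and 126 TPM. Xbp1-001 had the steeper rise of the pair. Its centred log2 count ratio was 6.13 (interval 5.91 to 6.36) against 4.17 (4.12 to 4.22) for Xbp1-201. The intervals do not overlap.

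The share of counts assigned to the long frame was smaller in plasma cells. Of the estimated counts on Xbp1-201, Xbp1-202 and Xbp1-001 together, the first 2 held 95.3% (interval 94.6 to 96.0) in the naive and 84.1% (83.8 to 84.4) in the plasma library. By TPM the same shares were 96.1% and 86.5%. Xbp1-003, which also holds the segment, is left out of these shares, and the fall by TPM depends on leaving it out. Xbp1-202 was put with the long frame by its coding length of 1071 bases alone. The TPM of Xbp1-201 was 24.7 times that of Xbp1-001 in naive B cells, and still 6.36 times in plasma cells. Within the gene as a whole, the share of Xbp1-201 was nearly level by TPM (84.8% and 85.3%) but fell by counts from 88.2% (87.1 to 89.2) to 83.3% (83.0 to 83.6).

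These shares are assignments of reads to transcript models, not a direct count of joined messages. Read words of 31 bases were used to see how much sequence tells the forms apart. In a model of Xbp1-201 built from Xbp1-001 without the segment, 24 of 1742 words (1.38%) are absent from Xbp1-001. In the other direction 381 of 2099 words (18.2%) occur only in Xbp1-001. Xbp1-001 also begins 308 bases before the model and ends 23 bases after it, so reads at its ends count toward it whatever the state of the segment.

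Xbp1-003 behaved unlike the others. Its level was 12.9 TPM in the naive and 9.78 TPM in the plasma library, and its share of Xbp1 TPM went from 11.8% to 1.04%. Its centred log2 ratio was 0.62, while the uncentred TPM was 0.758 times the naive one. Its counts were 284 and 407. In the GENCODE annotation 1 of its 3 exons runs across the whole of intron 4 of Xbp1-001 (300 bases, the intron that follows the exon with the IRE1 segment), and it also holds the segment. Xbp1-202, with a coding length of 1071 bases, had a count of 0 in the naive and 191 in the plasma library (2.45 TPM).

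**Figure D1:**
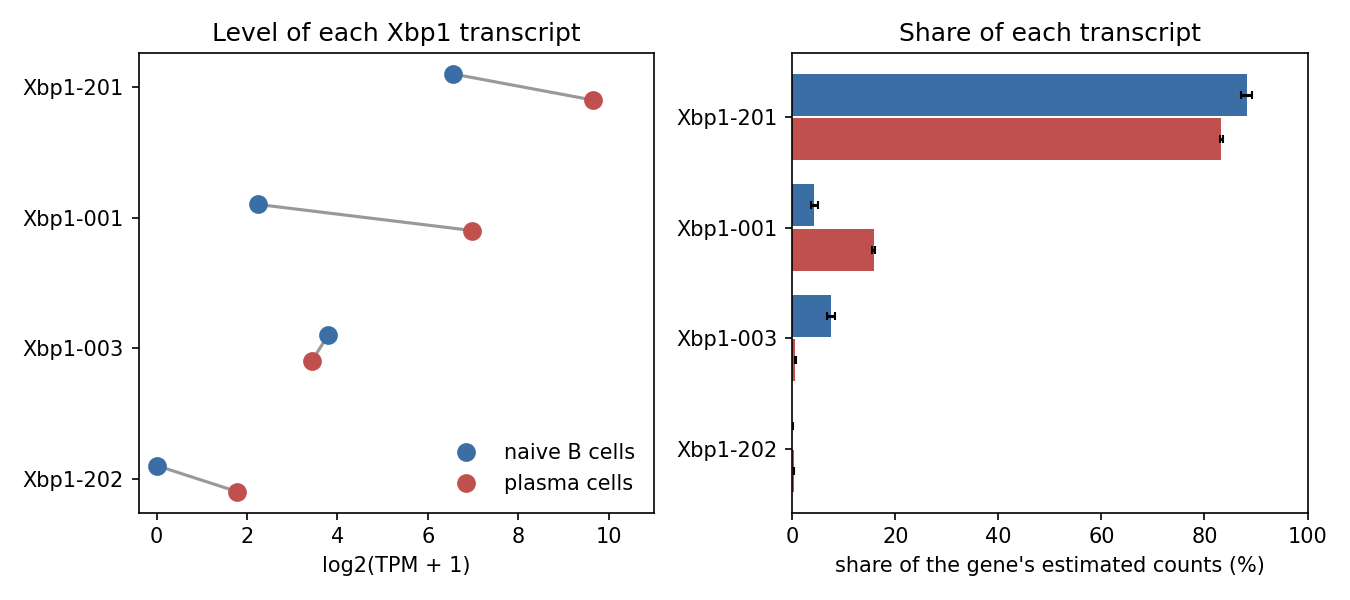
Left, level of the 4 Xbp1 transcripts as log2(TPM + 1) in naive B cells (blue) and plasma cells (red), 1 library each. Right, each transcript's share of the gene's estimated counts in percent, with 95% Clopper-Pearson intervals. Xbp1-201 holds most counts in both, and Xbp1-001 goes from 4.30% to 15.8% while Xbp1-003 goes from 7.48% to 0.620%.

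Of 8 listed genes of the machinery that cuts and rejoins Xbp1, 7 were tested. Of these, 3 were called higher, against 16.0% of all tested genes, and none lower (22.1% of all), with a median log2 ratio of 0.60 against -0.23 for all tested genes. Ern1, which encodes the IRE1 nuclease itself, rose from 5.89 to 22.9 TPM (log2 ratio 2.78). Ddx1 (51.3 and 60.4 TPM, 1.22) and Rtraf (99.5 and 157 TPM, 1.64), partners of the ligase, were called higher. The ligase gene Rtcb, at 149 and 86.5 TPM, had a ratio of 0.21. Its partners Zbtb8os (0.35) and Fam98b (0.24), and Tmem33 (0.60), a membrane protein linked to IRE1, were also below the call. Zbtb8os had the opposite sign by counts, with an interval of -0.69 to -0.49. Ern2, the gut form of IRE1, had no counts in either library. Without centring, Ern1 alone of these genes passed the call.

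The other arms of the response were represented by 8 genes, of which 5 were called higher (16.0% of all tested genes) and none lower (22.1% of all). Their median was 1.25. Creb3l2, a membrane-bound transcription factor, went from 4.91 to 23.8 TPM (3.06). Atf6, the sensor released by cleavage in the Golgi, went from 35.0 to 73.9 TPM (2.04). Atf4 (1.43) and Ddit3 (1.48), both downstream of the kinase PERK, and Nfe2l1 (1.06) were also called. Eif2ak3, which encodes PERK, had a ratio of 0.34 (58.5 and 37.0 TPM). Creb3 (0.33) and Atf6b (0.80) were likewise below the call. Without centring, only Creb3l2 and Atf6 of this list passed.

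Genes known as targets of XBP1 were nearly all higher in plasma cells. Of 44 listed genes, all were tested, 41 were called higher and none lower, against 16.0% higher among all tested genes. Their median ratio was 2.99, and the range was 0.76 to 5.31. The list was drawn up with results from these libraries already known and is no independent evidence of direction. Without centring 38 were called higher, against 7.75% of tested genes.

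By role, the 13 genes of membrane translocation and signal peptide removal were all called (median 2.98), as were the 4 of N-glycan transfer (3.17) and the 12 of folding (2.99). Of 8 degradation genes 6 were called (median 2.57), and of 7 traffic and other genes 6 (3.20). The steepest rises were those of Derl3, a degradation factor (12.3 to 264 TPM, 5.31), Fkbp11, a prolyl isomerase (6.92 to 122 TPM, 4.94), and Sdf2l1, a co-chaperone (16.6 to 215 TPM, 4.60). The 3 genes below the call were Derl2 (0.90), the ubiquitin ligase Syvn1 (0.76) and the Golgi protein Golgb1 (0.90). Xbp1 itself, at 4.08, lay inside the range of its targets.

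IRE1 is also known to cut other messages. Of 8 such substrates listed, 5 were under 5 TPM in both libraries. Bloc1s1, the best known, went from 90.5 to 40.9 TPM, a centred ratio of -0.14 with a count interval of -0.21 to 0.06. Without centring it would be called lower. Hgsnat had a ratio of 0.11, and Pdia4, also on the target list, was called higher at 2.70.

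**Figure D2:**
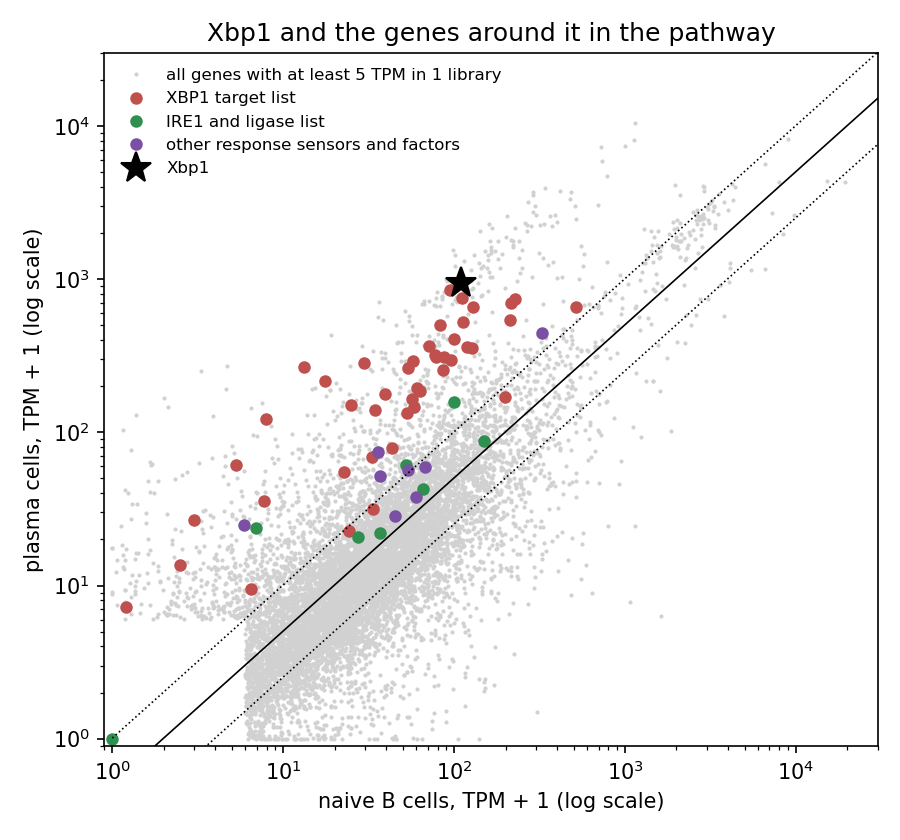
TPM + 1 in naive B cells and plasma cells on log axes, for all tested genes (grey), the target list (red), the IRE1 and ligase list (green), other sensors and factors (purple) and Xbp1 (star). The solid line is the median shift and the dotted lines are 2-fold either side. Of 44 targets 41 lie above the upper dotted line, while most of the IRE1 and ligase genes lie between the lines.

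Transcription factors that act on Xbp1 or beside it moved in both directions. Of 10 listed, 9 were tested, 4 were called higher and 5 lower, against 16.0% and 22.1% of all tested genes. Prdm1 went from 2.29 to 249 TPM (7.23). Ell2, an elongation factor, had a ratio of 3.63. The co-activator Pou2af1 was at 2.27, and Irf4, which acts with Prdm1, at 2.17. Pax5, a B cell factor known to repress Xbp1, went from 346 to 15.7 TPM (-3.39). Bach2 (-3.01) and Bcl6 (-2.66), which hold back Prdm1, were lower too, as were Spib (-5.17) and Ets1 (-1.91). Mitf was under 5 TPM in both libraries.

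The cell labels were checked against markers. All 7 matched naive B cell markers were called lower (Ighd had no match), against 22.1% of all tested genes. Of 7 tested plasma cell markers, 6 were called higher, against 16.0% of all tested genes. The exception was Sdc1, the gene of the sort marker CD138, at 11.1 and 5.38 TPM, and Tnfrsf17 was under 5 TPM. Among the markers, Prdm1, Irf4 and Pax5 are also on the regulator list, and Derl3 and Fkbp11 on the target list. The check is therefore not independent of those lists. The naive library carried more RNA of other lineages. The 10 T and NK cell markers summed to 106 TPM in the naive and 5.05 TPM in the plasma library. All 6 tested were called lower, and Cd3e, Trbc1, Trbc2, Klrb1c and Ncr1 were at 0 in plasma cells. The 8 myeloid markers summed to 144 and 1.02 TPM, with 5 of 5 tested lower and Elane at 0. The 8 erythroid and platelet markers summed to 83.1 and 2.29 TPM, with 4 of 4 tested lower and 6 at 0, among them Hba-a1, Hba-a2 and Hbb-bs. Their part in the results was not tested. In bulk RNA, fewer cells of a type and less RNA per cell cannot be told apart.

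The genes beside Xbp1 were read in the order of the chromosome. RefSeq (GRCm38.p6) was used only for gene order, 5 protein-coding genes on each side. Of these 10 genes, 7 were tested, 0 were called higher and 2 lower. With 16.0% and 22.1% of all tested genes called, these counts are near the background and are no result about the neighbours. The nearest on one side, Znrf3, was under 5 TPM (1.4 and 4.44 TPM) and so not tested, with a centred log2 ratio of 2.17, and the nearest on the other, Ccdc117, had a ratio of 0.70 (33.0 and 26.9 TPM). Emid1 was lower (39.0 and 0.931 TPM, -3.39), as was Dbnl (208 and 48.7 TPM, -1.09). Rhbdd3, Kremen1, Mrps24 and Urgcp had ratios of 0.08 to 0.65.

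In the plane of log2(TPM + 1) in both libraries, the 5 genes nearest to Xbp1 were immunoglobulin variable genes. Igkv6-25, Igkv3-12, Igkv4-55, Igkv4-68 and Ighv1-42 lay within 0.10 to 0.19 log2 units of it. The likeness rests on 2 libraries. Reads of variable genes can be shared between near-identical copies, so their levels are uncertain.

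The Xbp1 promoter lies in a region that was open in both cell types. Its RefSeq sequence is shown because a peak covers the start of the gene. These are the 250 bases before the start, chr11:5520391-5520640 on the plus strand of GRCm38.p6, with the core ACGT of many bZIP factor sites in capitals.
Xbp1 promoter: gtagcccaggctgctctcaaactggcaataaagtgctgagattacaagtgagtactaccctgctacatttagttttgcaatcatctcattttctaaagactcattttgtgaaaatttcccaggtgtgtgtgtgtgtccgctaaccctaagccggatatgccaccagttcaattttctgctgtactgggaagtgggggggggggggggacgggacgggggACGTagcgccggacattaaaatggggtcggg

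Both strands of this window were searched for the letters of known stress elements. ACGT occurred 1 time, at -31 from the start, and 26.9% of 32851 promoters hold it in a window of the same length. CCAAT (33.8% of promoters), CCACG (28.3%), TGACGTGG (0.563%) and the full stress element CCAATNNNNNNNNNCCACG (0.113%) were not found. The last contains CCAAT and CCACG, and TGACGTGG contains ACGT. A match is a description of letters and not a site. Only the 250 bases before the RefSeq start were searched. The model of Xbp1-201, the transcript with most counts, begins 308 bases into Xbp1-001. Bases before other starts of the gene were not searched, so these elements may lie there.

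More ATAC peaks surrounded Xbp1 in plasma cells. In the 500 kb window the naive list had 12 peaks covering 22.3 kb and the plasma list 19 peaks covering 41.9 kb. Across the genome, 4.40% of the 4252 such windows with at least 1 peak in either list had a surplus of plasma peaks at least as large. Of the window's peaks, 10 in each list overlapped a peak of the other by at least 1 base. That is 83.3% of the naive peaks (68.7% over the whole list) and 52.6% of the plasma peaks (66.8%). Thus 2 naive and 9 plasma peaks had no counterpart. With 1 list per cell type, a peak just under the caller's threshold counts as absent.

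The peak over the start of Xbp1 was wider in plasma cells but ranked lower. In naive B cells it spanned 5420128 to 5422742 with a score of 502, rank 6821 of 29868. In plasma cells it spanned 5419436 to 5423196 with a score of 306, rank 13267 of 30475. The start of Xbp1 was placed near 5.42 Mb in mm9, from general knowledge. Scores are the authors' own, are not normalised between the lists, and ranks from lists of different length show no change. Directly behind it, the plasma list had a peak of 4884 bases (5423300 to 5428183, score 101), with no naive counterpart.

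Of the 9 peaks found only in the plasma list, 7 lay upstream of the promoter peak. The highest, 5399072 to 5402296, was centred at -20.8 kb from the naive promoter peak with a score of 442, while the median of the window's shared plasma peaks was 407. Another lay at -12.02 kb (152). The other 5 upstream ones, from -187 to -119 kb, scored 52.9 to 212. Downstream of the gene-body peak, 1 more lay at 34.4 kb (60.6). The 2 peaks found only in the naive list were low, at 80.9 and 90.6. The shared peaks included one 20.6 kb downstream of the naive promoter peak with scores of 565 and 551.

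**Figure D3:**
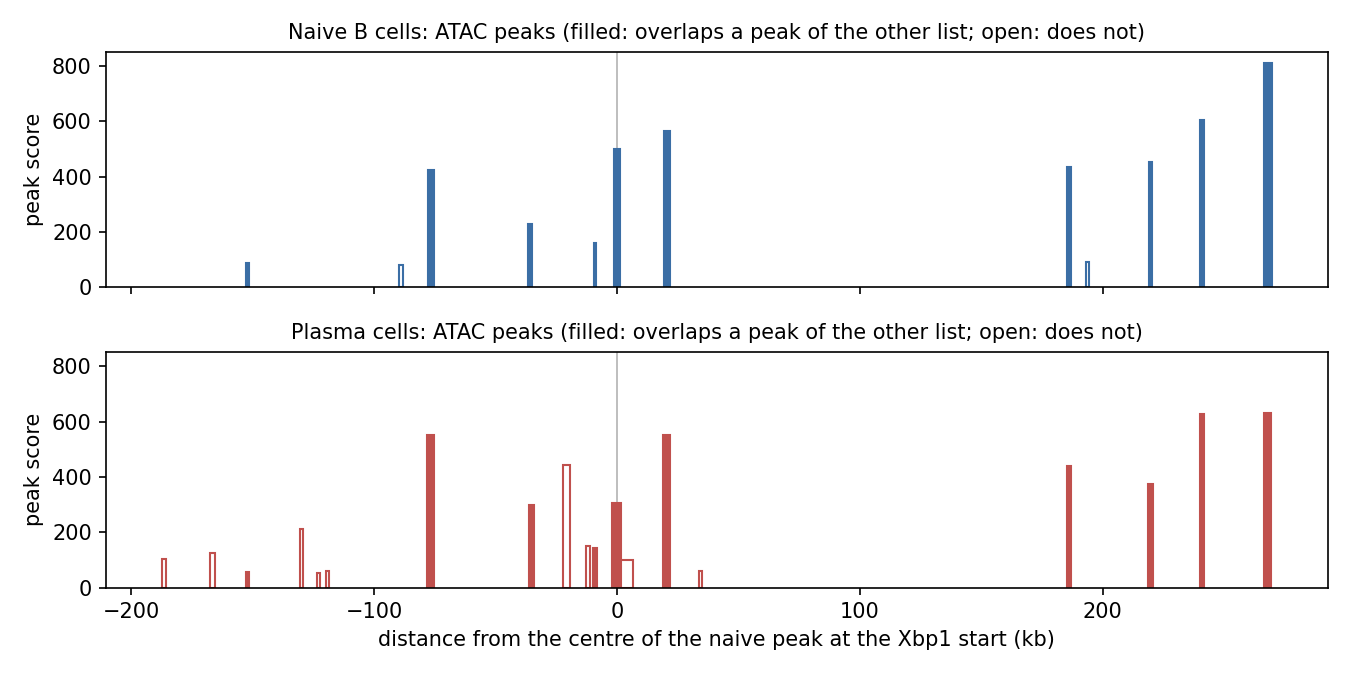
ATAC peaks around Xbp1 by distance in kb from the centre of the naive peak at its start, with the authors' peak score as height. Filled bars overlap a peak of the other list and open bars do not. The upstream side carries 7 of the 9 open plasma bars, the tallest of them at -20.8 kb.

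Contacts were read from maps that the authors balanced so that every bin has the same total. In the 2 Mb maps, contacts with other chromosomes made up 31.7% of the total of the Xbp1 bin in the naive and 27.6% in the plasma map. The median of 1286 usable bins went from 24.2% to 19.7%, so the difference of -4.09 percentage points was close to the median difference of -4.15. The bin ranked high in both maps, above 91.8% and 96.0% of bins. Bins from 4 to 6 Mb on 18 other chromosomes had medians of 31.2% and 26.0%, and 8 and 7 of the 18 were above the Xbp1 bin.

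The direction turned when contact of the bin with itself was left out. Contact within 4 to 6 Mb took 38.8% of the total in the naive and 51.2% in the plasma map, while the median bin went from 31.8% to 36.2%. Leaving it out, contacts with other chromosomes made up 51.7% and 56.5%, a rise of 4.75 points. The same share fell by 4.08 points in the median bin and rose in 253 of 1286 bins (19.7%), and in 2 of the 18 bins at the same place on other chromosomes. Whole read pairs gave the same direction. Outside 4 to 6 Mb, the 1 Mb bin of Xbp1 had 23758 read pairs in the naive and 17596 in the plasma map. Of these, 50.8% (50.2 to 51.5) and 56.0% (55.3 to 56.7) joined other chromosomes. The number that did so went from 12072 to 9855, so the rise was one of share and not of number. With all pairs counted the shares were 30.0% (29.6 to 30.5) of 40194 and 25.5% (25.1 to 26.0) of 38619.

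Along chromosome 11, contact near Xbp1 was higher and distant contact lower in plasma cells. Toward the distal end, all 15 bins from 2 to 30 Mb away had more contact in plasma cells, with log2 ratios of 0.59 for the sum from 2 to 10 Mb and 0.44 from 12 to 30 Mb. From 62 Mb to the end of the chromosome all 28 bins had less, and the sum went from 209 to 56.3 units of balanced contact (log2 ratio -1.89). Bin pairs at the same distances over all autosomes had ratios of 0.30, 0.24 and -1.71. The Ern1 bin, about 102 Mb away on the same chromosome, went from 275 read pairs with the 1 Mb bin of Xbp1 to 46. Its contact with the 2 Mb bin was 2.64 times the naive mean for that distance and 2.13 times the plasma mean.

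**Figure D4:**
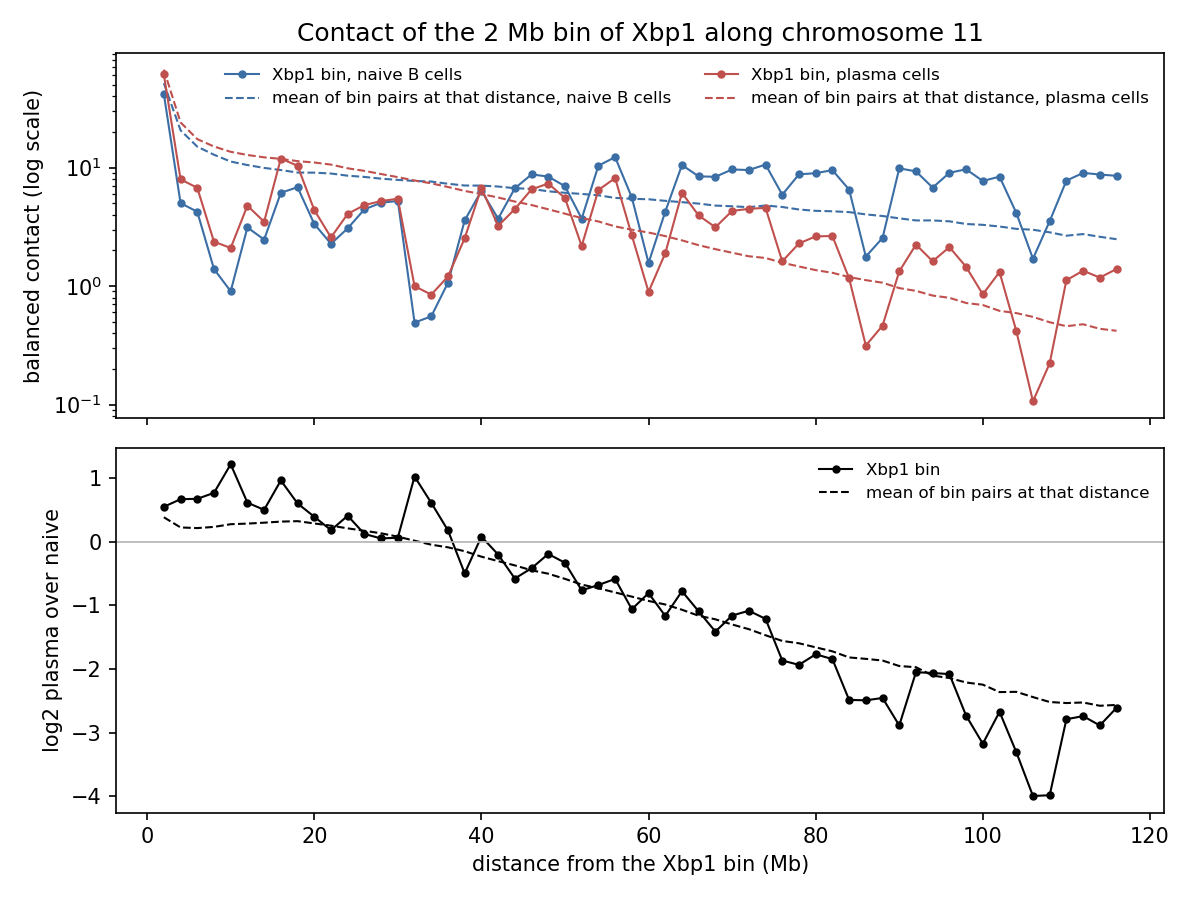
Upper, balanced contact (log scale) of the 2 Mb bin of Xbp1 with bins along chromosome 11 by distance in Mb, with the mean of bin pairs at that distance dashed. Lower, log2 of plasma over naive for both. Contact is higher in plasma cells at all 15 bins up to 30 Mb and lower at all 28 bins beyond 62 Mb, and the dashed line has the same sign in both ranges.

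Contacts with other chromosomes were higher with regions rich in ATAC peaks in both maps. Values here are given as multiples of the mean contact between chromosomes in the same map. With the 407 partner bins richest in ATAC peaks (58 to 193 in both lists together), contact was 2.51 in the naive and 2.46 in the plasma map. With the 421 poorest (0 to 25 peaks) it was 0.404 and 0.561. The Xbp1 bin is itself rich, with 47 naive and 59 plasma peaks, above 93.3% of bins in their sum.

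Partners near chromosome ends moved in opposite directions. With the 90 bins that start from 2 to 12 Mb, near the centromere, contact went from 1.77 to 2.68 (log2 0.60), and with the 94 bins of the last 10 Mb it went from 1.35 to 0.684 (-0.98). Bins at the same place on other chromosomes had median log2 ratios of 0.53 and -0.91. The ratio was above that of Xbp1 in 6 and 14 of these 18 bins. By chromosome, the highest contact in both maps was with chromosome 19 (4.36 and 3.38), then 17 (2.27 and 2.53). Chromosomes 15 (2.06 and 1.54) and 9 (1.89 and 1.71) came next, 15 ahead in the naive and 9 in the plasma map, and the lowest was with X (0.411 and 0.604).

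Among single partner bins, log2 ratios were computed after adding 0.1 of the mean naive contact. Of 1226 partners, 133 (10.8%) had at least 2-fold more contact in plasma cells, against 8.48% of all bin pairs between chromosomes. At least 2-fold less was found for 226 (18.4%), against 18.6%. Scaled to the same mean contact between chromosomes instead, 210 were higher and 148 lower. The 10 bins with the largest gain and the 10 with the largest loss were mostly thin, with 0 to 7 read pairs in either map for all 10 gains. The loss with the most such pairs was chromosome 12 from 110 to 112 Mb, 2 Mb before the Igh bins. It had 15 in the naive and 2 in the plasma map.

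Contact with 12 loci of the plasma cell and B cell programme on other chromosomes was read from the 2 Mb bins holding them. Their places in mm9 are approximate and come from general knowledge. The Igh bins (chromosome 12, 114 to 118 Mb), which hold the antibody heavy chain genes, had 35 read pairs with the 1 Mb bin of Xbp1 in the naive and 5 in the plasma map. The log2 ratio of read pairs was -2.79 (interval -4.50 to -1.43), and balanced contact went from 3.25 to 0.876 times the mean. The Igh bins are among the 94 partner bins near the distal chromosome ends. As a set, contact with these went from 1.35 to 0.684 times the mean (log2 -0.98). Bins at the same place as Xbp1 on other chromosomes had a median of -0.91. On this scale Igh had -1.89. Whether the fall of Igh exceeds that of other bins in the set was not tested. Unlike Igh, the Prdm1 bin rose, from 11 to 28 pairs (1.37, 0.32 to 2.52) and from 1.19 to 3.48 times the mean. By balanced contact, 1 of the 12 loci was at least 2-fold higher, against 10.8% of all 1226 partner bins. At least 2-fold less was found for 2, against 18.4%. These counts are near the shares over all partners. Whether the rise of Prdm1 exceeds that of other bins was not tested.

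The Atf4 bin was the strongest partner of these loci in naive B cells, at 9.21 times the mean, above 99.3% of partners. It had 86 and 48 pairs (-0.82, -1.36 to -0.30) and stood at 5.79 in plasma cells. The Igl bin, with a light chain locus, had 47 and 25 pairs (-0.89, -1.65 to -0.16). The other 8 loci had intervals that include 0. These ratios are relative to all reads of the 1 Mb bin, whose pairs with other chromosomes went from 12072 to 9855. A partner that kept its part of those pairs would therefore lie somewhat below 0. The upper limits of Atf4 (-0.30) and Igl (-0.16) are near 0. Whether their intervals leave out that lower value was not computed. The share of all partner bins with intervals that leave out 0 was not computed. The counts are thus no result about these loci as a set. Hspa5, the gene of the chaperone BiP, had 44 and 42 pairs, and Irf4 13 and 20. Pax5 had 35 and 43, Bach2 20 and 30, Bcl6 18 and 21, Igk 22 and 30, Ell2 6 and 4, and Jchain 0 and 2.

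The deposited interaction lists name 1 Mb bin pairs with more reads than the authors' background model expects. The Xbp1 bin had 198 listed partners on other chromosomes in the naive and 185 in the plasma list. That is 8.37% and 7.82% of 2367 possible partners, where 1.80% and 1.74% of all bin pairs were listed. Both lists shared 115 of them, 58.1% of the naive and 62.2% of the plasma partners, against 30.7% and 31.8% over all pairs. Bins at the same place on other chromosomes had medians of 53 and 85.5 partners.

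Read pairs were compared between the maps for each listed partner. Of the 83 partners listed in naive B cells only, the interval of the read pair ratio lay below 0 for 55 and included 0 for 28. Of the 70 listed in plasma cells only, it lay above 0 for 25 and included 0 for 45. Of the 115 in both, it included 0 for 85. These intervals use the same reads that made the lists and are not adjusted for their number, so they describe the lists and test nothing.

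The longest unbroken run of shared partners was chromosome 17 from 24 to 36 Mb, 12 bins with 447 and 403 read pairs in all. Runs of 5 bins lay on chromosome 15 from 78 to 83 Mb (220 and 121), which includes the Atf4 bin, on chromosome 19 from 3 to 8 Mb (275 and 209), and on chromosome 2 from 28 to 33 Mb (228 and 190). The shared partners with the highest Z-score of the authors in either list were chromosome 9 from 21 to 22 Mb (36 and 58 pairs) and chromosome 17 from 26 to 27 Mb (47 and 56). Chromosome 2 from 30 to 31 Mb (63 and 39), chromosome 19 from 46 to 47 Mb (72 and 31) and chromosome 17 from 5 to 6 Mb (21 and 54) followed.

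Those listed in 1 cell type only were led by chromosome 5 from 123 to 124 Mb in naive B cells (36 and 11 pairs). Next came chromosome 9 from 107 to 109 Mb (2 bins, 41 and 10, and 33 and 9), chromosome 5 from 115 to 116 Mb (33 and 12) and chromosome 19 from 47 to 48 Mb (41 and 13). In plasma cells they were led by chromosome 17 from 6 to 7 Mb (4 and 18), beside the shared partner at 5 to 6 Mb. Chromosome 6 from 30 to 31 Mb (11 and 32), chromosome 1 from 36 to 37 Mb (8 and 33), chromosome 3 from 51 to 52 Mb (12 and 31) and chromosome 5 from 23 to 24 Mb (7 and 28) came next.

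**Figure D5:**
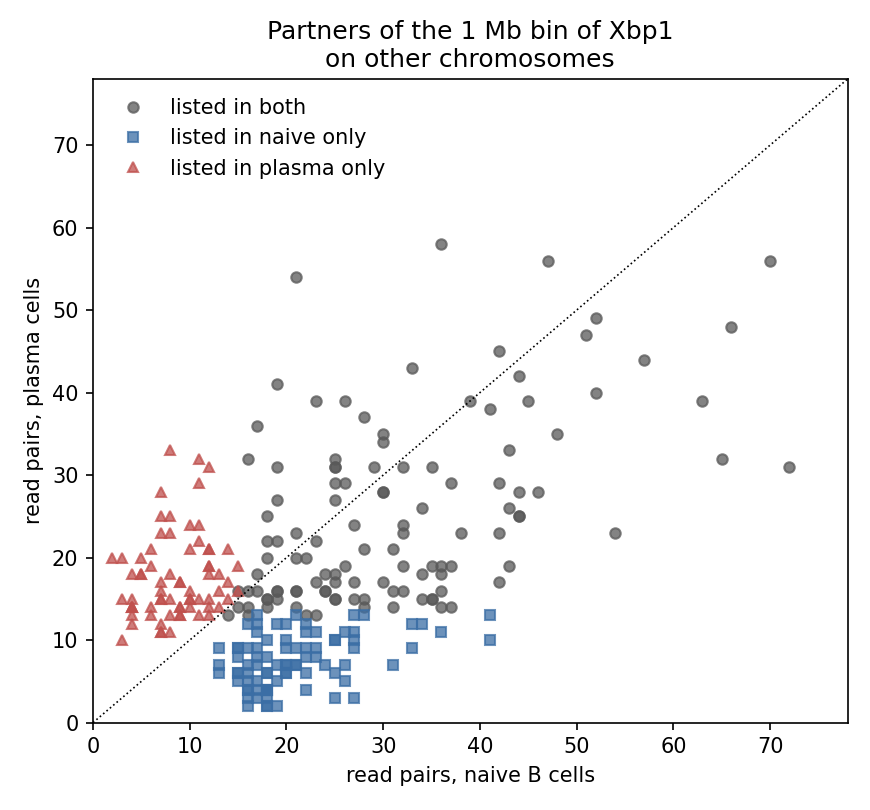
Read pairs between the 1 Mb bin of Xbp1 and each listed partner on another chromosome, naive against plasma, with the dotted line at equal numbers. Grey points are the 115 partners in both lists, blue squares the 83 in the naive list only and red triangles the 70 in the plasma list only. Many blue and red points sit near the lower end of the range.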

How the data were processed

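RNA-seq, ATAC-seq and TCC libraries were used (6 of 10 samples, 1 per cell type and assay); the 4 ChIP-seq samples were not analysed here. The submitters' processing notes name mm9, Bowtie, TopHat, HOMER, Picard, MACS 1.4 and kallisto, with no role or order. Per the file headers, the authors deposited kallisto estimated counts and TPM per transcript. The authors deposited a score per ATAC peak, and matrices of contact signal at 2 Mb and 500 kb, balanced to equal row sums. The deposited 1 Mb interaction lists give counts of read pairs, expected reads, a Z-score and a corrected p-value per pair, per the file headers. Library totals were 37.0 M and 43.5 M estimated counts for naive B cells and plasma cells.

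Transcripts were summed by gene; log2 ratios used a pseudocount of 1 TPM. Whole read pairs were recovered from the 500 kb maps: 99.9% of entries between chromosomes came out whole within 0.05, and all 205 and 202 listed interactions of the Xbp1 bin were matched exactly. Estimated counts were rounded for intervals and for TMM factors (edgeR 4.0.16). Bins with few nonzero contacts to other chromosomes (under 0.5 of the median share in either map) were left out, which kept 1286 of 1328. Calculations used Python 3.11.15 and scipy 1.17.1. The gene calls and the peak overlap were tested on simulated data, and the other steps were not.

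The members, gene lists and loci were chosen with earlier results of these data known, and roles within the target list were assigned after its values were seen. Named genes were all members of the machinery, sensor and regulator lists, the 3 largest called changes in each direction of other lists, the 10 largest gains and losses among partner bins, the loci, 5 neighbours on each side and the 5 nearest genes in level; named partners were the 5 with the largest Z-score in each class. Target and marker genes below the call, substrates of IRE1 and markers at 0 were named after their values were seen. One entry of the machinery list, made in error, was dropped after the lists were fixed.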

Additional observations from a re-analysis of the deposited data

How the results depend on the processing

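Across 20 results, 67 alternative values were computed, 2 kinds of alternative being added after the data were seen; 39 stayed close to the reported value, 25 moved and 3 reversed. The log2 ratio of Xbp1 was 4.13 with a pseudocount of 0.1 TPM, 3.89 with 5 TPM, 3.09 without centring, 4.59 from estimated counts with TMM factors and 4.25 from centred counts. From TPM to estimated counts, the difference in share went from 0.54 to -4.91 points for Xbp1-201 (reversed), from 9.98 to 11.5 for Xbp1-001 and from -10.8 to -6.86 for Xbp1-003. Between 38 and 43 of the 44 targets were called higher under the alternatives. Genes called lower numbered 1239 with a pseudocount of 5 TPM and 5890 without centring, against 2257; genes called higher were 7.75% of those tested without centring, against 16.0%, and numbered 3680 without the filter, against 1634. With a peak score of at least 100 there were 9 naive and 15 plasma peaks, of which 0 and 6 stood alone. In the 50 kb from 5.4 Mb there were 3 naive and 6 plasma peaks, of which 0 and 3 stood alone. The difference in the share of contacts with other chromosomes was -6.20 points for the 500 kb bin, but 4.75 without the bin with itself and 5.19 in read pairs without partners in 4 to 6 Mb, both reversed. Partners at least 2-fold higher numbered 33 with a pseudocount of 0.5 of the mean, 210 after scaling both maps to the same mean and 234 for the 500 kb bin; those at least 2-fold lower numbered 89, 148 and 333 under these in turn. Scaling thus turned the surplus of lower over higher partners. Listed partners with a Z-score in the upper quartile numbered 86 in naive B cells, 81 in plasma cells and 47 in both. The cause was not tested. No paired analysis was possible because there was 1 library per group and the labels carry no replicate numbers. Read depth limits single partners: the 10 bins with the largest gain had 0 to 7 read pairs with the 5 to 6 Mb bin in either map. Pairs of the 4 to 5 Mb part were not recovered.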
